A study of Mus musculus with 12 samples.

Results

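A set of 10 heat shock and chaperone genes was followed in the striatum of mice labelled TAAR5-KO and WT. The members were Hspa8, Hspa1b, Dnajb1, Hsph1, Hspa4l, Hsp90aa1, Hsp90ab1, Hspa5, Hsp90b1 and Hspd1, taken by symbol, which makes 10 of the 57132 features counted. All 10 passed the filter on low values, as did 13902 features in all. Bulk RNA came from 12 libraries, 6 labelled TAAR5-KO (NK1 to NK6) and 6 labelled WT (NK7 to NK12). Both groups were C57Bl/6 littermates of both sexes aged 10 months, and the knockout was a published line that lacks trace amine-associated receptor 5, a receptor for volatile amines. The tissue was what remained of a coronal slice of the forebrain after removal of the cortex, so it was not a sorted population. The library names give neither an animal number nor a sex, and sex entered no fit. The comparison asks whether the genotype label goes with the level of the chaperone genes in the striatum.

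Chaperones bind unfolded or partly folded proteins and let them fold, be carried across membranes or be degraded. The HSP70 proteins work through cycles of ATP hydrolysis that J-domain proteins start and nucleotide exchange factors such as the HSP110 proteins end, and the HSP90 proteins act later on a smaller set of clients, among them kinases and steroid receptors. Each compartment has its own members, with the cytosol, the endoplasmic reticulum (ER) and the mitochondrion represented here. Some genes are expressed at all times in neurons, whereas others, such as Hspa1b and Dnajb1, are known for strong induction by heat through heat shock factor 1 (HSF1), and ER members respond to unfolded protein in the ER through ATF6 and XBP1.

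The promoters differed in the letters that these factors are known to bind. The 250 bases before the start of the canonical transcript (GENCODE M39 on GRCm39, the build of the counts) were searched on both strands in the members and in 21757 protein-coding genes. The ER stress response element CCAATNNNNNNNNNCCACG (N, any base), which includes a CCAAT box, was in 2 of 10 members, Hspa5 and Hsp90b1, and in 0.115% of all promoters. A heat shock element of the form GAANNTTCNNGAA or its shifted form TTCNNGAANNTTC was in 1 member, Hspd1, and in 0.349% of all promoters. A shorter pair of heat shock units (GAANNTTC or TTCNNGAA), which every such element also holds, was in 3 members, Hspa1b, Hsph1 and Hspd1, and in 12.3% of all promoters. The CCAAT box was in 8 of 10 members, against 36.5% of all promoters. These are matches of letters in a short window, and no match says nothing about binding elsewhere.

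The promoters of the 5 members that hold an ER stress response element or a pair of heat shock units are shown, 5′ to 3′ on the strand of the gene. The other members held neither in this window. Capitals mark the ER stress response elements in Hspa5 (chr2:34661854-34662103, plus strand) and Hsp90b1 (chr10:86541379-86541628, minus strand), and the heat shock units in Hspd1 (chr1:55127184-55127433, minus strand), Hspa1b (chr17:35178215-35178464, minus strand) and Hsph1 (chr5:149559807-149560056, minus strand).
Hspa5: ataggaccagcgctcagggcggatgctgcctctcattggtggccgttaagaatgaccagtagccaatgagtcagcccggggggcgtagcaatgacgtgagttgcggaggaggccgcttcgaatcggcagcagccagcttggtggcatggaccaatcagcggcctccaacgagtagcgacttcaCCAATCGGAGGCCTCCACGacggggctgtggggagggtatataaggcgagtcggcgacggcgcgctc
Hsp90b1: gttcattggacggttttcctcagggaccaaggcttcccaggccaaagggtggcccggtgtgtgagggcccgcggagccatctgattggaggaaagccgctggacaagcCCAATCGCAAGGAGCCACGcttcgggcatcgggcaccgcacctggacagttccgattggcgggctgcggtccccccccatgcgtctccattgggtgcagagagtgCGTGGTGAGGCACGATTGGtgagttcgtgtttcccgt
Hspd1: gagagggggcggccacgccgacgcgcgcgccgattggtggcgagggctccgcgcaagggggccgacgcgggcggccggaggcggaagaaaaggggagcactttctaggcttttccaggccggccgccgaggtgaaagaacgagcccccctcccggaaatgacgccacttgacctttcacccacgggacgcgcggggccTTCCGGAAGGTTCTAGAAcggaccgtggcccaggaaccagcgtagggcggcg
Hspa1b: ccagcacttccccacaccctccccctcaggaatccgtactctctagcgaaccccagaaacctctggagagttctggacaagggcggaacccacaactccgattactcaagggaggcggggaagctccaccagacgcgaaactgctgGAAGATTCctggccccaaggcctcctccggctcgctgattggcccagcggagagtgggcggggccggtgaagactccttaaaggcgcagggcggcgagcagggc
Hsph1: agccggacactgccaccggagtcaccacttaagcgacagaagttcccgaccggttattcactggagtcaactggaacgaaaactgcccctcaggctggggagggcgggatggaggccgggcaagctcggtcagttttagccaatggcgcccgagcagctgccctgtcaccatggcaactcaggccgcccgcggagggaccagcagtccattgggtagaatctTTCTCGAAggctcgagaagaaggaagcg
Hspa5 held the element once, beginning at position -67 from the start site, and Hsp90b1 held it on both strands. In Hspd1 the overlapping elements form a single run. The start site of Hspd1 lies 108 bases from that of Hspe1, which codes for its co-chaperonin and is read in the opposite direction, so this run lies between both start sites and within the annotated span of Hspd1.

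The libraries held from 11269915 to 34824450 counts, of which 61.3% to 84.7% were on Rn18s-rs5, a ribosomal RNA feature. Levels are therefore given as CPM, counts relative to a library size that was scaled by TMM (trimmed mean of M-values), whose factors ran from 0.375 to 2.47. The labels compared with a p of 0.130 for total counts and of 0.264 for the Rn18s-rs5 share (exact permutation tests, two-sided). Taar5 went against the labels, with 16 counts in the libraries labelled TAAR5-KO and 3 in those labelled WT (exact permutation test of CPM, p = 0.00649), so genotypes are given as labels throughout. Markers of striatal spiny neurons were present in every library, but a summed level of 5 choroid plexus markers ran from 2.60 to 468 CPM under the TAAR5-KO label and from 3.64 to 286 CPM under WT. Under TAAR5-KO this sum was 2.60 to 8.23 CPM in NK1, NK2, NK3 and NK6. Under WT only NK12 was that low, and the rest had 112 to 286 CPM. Markers of cortical pyramidal neurons summed to 23.1 to 96.5 CPM over the 12 libraries, although the cortex had been removed.

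Of the 10 members, 0 passed an adjusted p under 0.1 in the likelihood ratio test of edgeR, in which 1.65% of the 13902 features passed. The quasi-likelihood test of edgeR also called 0 members, against 0.453% of features. At an unadjusted p under 0.05 there were 0 members in either test, against 11.9% of features in the likelihood ratio test and 12.0% in the quasi-likelihood test. DESeq2 called 0 as well, against 1.27% of features, with the adjusted p of 2 members missing. It gave Hsp90b1 and Hspa4l an unadjusted p under 0.05, but the share of all features under that value was not computed for DESeq2. The fitted log2 fold change (labelled TAAR5-KO minus labelled WT) was positive for 7 members and negative for 3. Its median over the members was 0.08, against -0.01 over all features tested. There were 0 members whose libraries separated without overlap by label, against 1.01% of features.

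In the fit with TMM scaling, the 95% interval of the log2 fold change lay within 0.5 of 0 for 8 of 10 members. That bounds their difference under this scaling only. The others, Dnajb1 and Hspa1b, had few counts and wide intervals. A missed threshold does not show that the levels were equal.

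**Figure D1:**
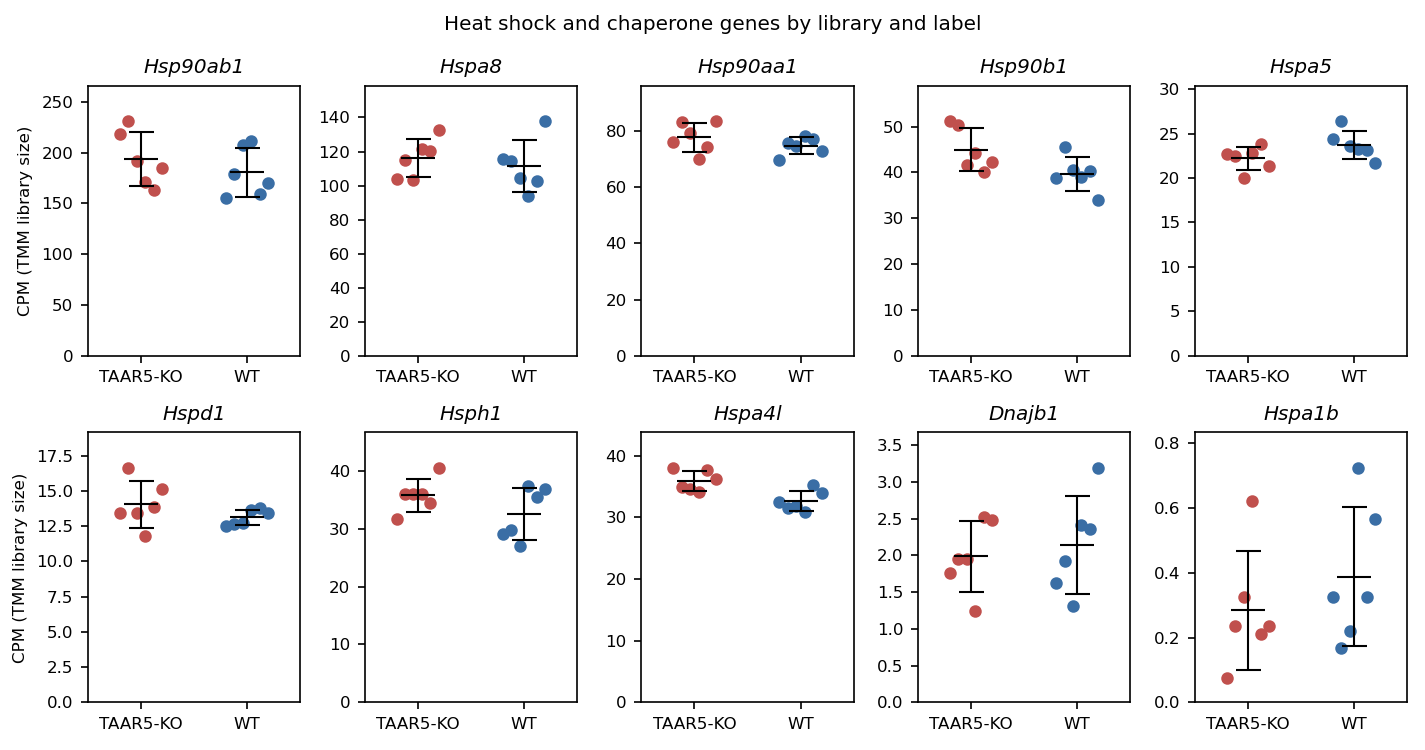
CPM of the 10 members (y axis, from 0) in the 6 libraries labelled TAAR5-KO (red) and the 6 labelled WT (blue), with the mean and SD as bars. The ranges of both labels overlap in every panel, and Hspa1b stays under 0.8 CPM.

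Hspa8 codes for HSC70, the constitutive cytosolic HSP70, which among other tasks strips clathrin from vesicles at synapses (chromosome 9, 40712280 to 40721383, plus strand). Its level under the TAAR5-KO label had a lowest value of 103, a median of 118 and a highest of 133 CPM. Under the WT label these were 93.9, 110 and 138 CPM. The WT libraries thus held both the highest value (NK12) and the lowest (NK10), and the groups overlapped fully. On the log2 scale the fold change was 0.06 (SE 0.11, 95% interval -0.16 to 0.27, adjusted p = 0.896, edgeR likelihood ratio test).

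In the table there were 5 near-identical copies of Hspa8, and they held 485 counts, 1.62% of those of Hspa8. One of them, the processed pseudogene Gm15459 on chromosome 5 (5831615 to 5833555), matches the Hspa8 transcript over 1941 bases at 99.7% identity. Gm15459 had 92 counts in NK10 and 228 in NK11, which is 11.8% and 10.3% of the Hspa8 count of the same library. In the other 10 libraries this share ran from 0.0787% to 0.562%. Both libraries with a high share carry the WT label. Gm15459 itself had a log2 fold change of -3.17 (SE 0.76), with an adjusted p of 0.0185 in the likelihood ratio test and 0.211 in the quasi-likelihood test of edgeR. With the copies added to Hspa8, its own log2 fold change was 0.01 (SE 0.10, edgeR adjusted p = 0.979).

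Hspa1b codes for the HSP70 that heat is known to induce (chromosome 17, 35175412 to 35178214, minus strand). It had between 1 and 25 counts per library. In the libraries labelled TAAR5-KO the CPM had a lowest value of 0.0766 (NK1), a median of 0.235 and a highest of 0.620 (NK4). In those labelled WT they were 0.167, 0.324 and 0.724, the highest in NK10. No more than 3 counts were found in 2 libraries labelled TAAR5-KO and 1 labelled WT. High and low libraries occurred under both labels, and the log2 fold change of -0.44 (SE 0.42, 95% interval -1.26 to 0.38, edgeR adjusted p = 0.731) left a wide range of differences undetectable at this depth.

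The neighbouring gene Hspa1a codes for nearly the same protein, and the transcripts match over 2200 bases at 99.1% identity, so counts can be split between them. Hspa1a held 36 counts in the 12 libraries against 85 for Hspa1b and did not pass the filter. For the sum of both genes the log2 fold change was -0.37 (SE 0.35, edgeR adjusted p = 0.719).

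Dnajb1 codes for HSP40, the J-domain partner that hands clients to HSP70 (chromosome 8, 84334822 to 84339282, plus strand). It had 12 to 141 counts per library. The CPM under the TAAR5-KO label had a lowest value of 1.24, a median of 1.95 and a highest of 2.52. The WT values were 1.31, 2.14 and 3.19. NK12 was the highest of all 12 libraries and NK4 the lowest, with overlap in between. The log2 fold change was -0.11 (SE 0.22, 95% interval -0.55 to 0.32, edgeR adjusted p = 0.897), and without NK12 it was 0.08.

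Hsph1 and Hspa4l code for HSP110 proteins, which exchange the nucleotide of HSP70 and keep clients soluble. For Hsph1 (chromosome 5, 149537752 to 149559841, minus strand), the lowest, median and highest CPM were 31.7, 35.9 and 40.5 under the TAAR5-KO label and 27.1, 32.6 and 37.4 under WT. The WT libraries fell into a lower set (NK7, NK8 and NK9) and a higher one (NK10, NK11 and NK12), and all 6 TAAR5-KO libraries lay above the lower set, with NK6 above the higher set as well. Hsph1 had a log2 fold change of 0.14 (SE 0.10, 95% interval -0.06 to 0.33, edgeR adjusted p = 0.635). For Hspa4l (chromosome 3, 40699814 to 40750538, plus strand), the values were 34.1, 35.6 and 38.1 CPM under the TAAR5-KO label and 30.9, 32.2 and 35.3 CPM under WT. All 6 libraries labelled TAAR5-KO exceeded the WT median, and 3 of them exceeded the highest WT library, NK11. Its log2 fold change of 0.13 (SE 0.08, 95% interval -0.02 to 0.28, adjusted p = 0.508) did not pass the edgeR test.

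The cytosolic HSP90 genes are Hsp90aa1, the more inducible form, and Hsp90ab1, the constitutive form. Hsp90aa1 (chromosome 12, 110657039 to 110669162, minus strand) had a lowest, median and highest CPM of 70.1, 77.6 and 83.4 under the TAAR5-KO label and of 69.6, 75.2 and 78.0 under WT. NK2, NK3 and NK6 lay above every WT library and the remaining TAAR5-KO libraries among them. This gave a log2 fold change of 0.06 (SE 0.08, 95% interval -0.10 to 0.22, edgeR adjusted p = 0.845). Its 3 processed pseudogenes in the table held 0.702% of the counts of Hsp90aa1, and adding them left the log2 fold change at 0.06.

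Hsp90ab1 (chromosome 17, 45878701 to 45884197, minus strand) had a lowest, median and highest CPM of 163, 188 and 231 under the TAAR5-KO label and of 155, 175 and 212 under WT. NK1 and NK2 were the highest libraries, and the rest were interleaved by label. The log2 fold change was 0.10 (SE 0.12, 95% interval -0.13 to 0.33, edgeR adjusted p = 0.802). The log2 ratio of Hsp90aa1 to Hsp90ab1, in counts per kilobase of merged exons, is a measure within a library. It was -1.70 ± 0.16 (SD, n = 6) under the TAAR5-KO label and -1.65 ± 0.16 (SD, n = 6) under WT. That difference of -0.04 was smaller than the SD of either group (exact permutation test, two-sided, p = 0.649).

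In the ER, Hspa5 codes for BiP, the HSP70 of that compartment and a sensor of its load of unfolded protein, and Hsp90b1 for GRP94, the HSP90 there. Both share the ER stress response element shown above. Hspa5 (chromosome 2, 34661982 to 34667559, plus strand) had a lowest, median and highest CPM of 20.05, 22.6 and 23.8 under the TAAR5-KO label and of 21.6, 23.4 and 26.4 under WT. NK3 and NK6 lay below every WT library and NK7 and NK8 above every TAAR5-KO library, while the other libraries mixed. The log2 fold change was -0.09 (SE 0.08, 95% interval -0.26 to 0.07, edgeR adjusted p = 0.703). Exons of Rabepk overlap those of Hspa5 over 1324 bases, and the treatment of such reads is not stated.

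Hsp90b1 (chromosome 10, 86526073 to 86541373, minus strand) had a lowest, median and highest CPM of 40.0, 43.3 and 51.2 under the TAAR5-KO label and of 33.9, 39.6 and 45.6 under WT. All 6 libraries labelled TAAR5-KO lay above the WT median, with NK1 and NK2 above every WT library. Its log2 fold change of 0.18 (SE 0.10, 95% interval -0.01 to 0.37) had the smallest adjusted p of the members, 0.468 in the likelihood ratio test and 0.425 in the quasi-likelihood test of edgeR. The ER members thus had fitted values of opposite sign, neither past the threshold.

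The log2 ratio of Hspa5 to Hspa8, ER against cytosolic HSP70, was also taken in counts per kilobase. It was -2.36 ± 0.14 (SD, n = 6) under the TAAR5-KO label and -2.20 ± 0.23 (SD, n = 6) under WT, a difference of -0.16 (exact permutation test, two-sided, p = 0.188). Among the WT libraries NK12 was the lowest at -2.65 and the next was -2.22. Without NK12 the difference was -0.25 (exact permutation test, p = 0.00649), so 1 library decides this value. The log2 ratio of Hspa1b to Hspa8 was -8.10 ± 0.79 under the TAAR5-KO label and -7.59 ± 0.78 under WT (SD, n = 6 each), a difference of -0.51 (exact permutation test, p = 0.284).

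Hspd1 codes for HSP60, which forms the folding chamber of the mitochondrial matrix (chromosome 1, 55116994 to 55127402, minus strand). The lowest, median and highest CPM were 11.8, 13.7 and 16.7 under the TAAR5-KO label and 12.5, 13.1 and 13.8 under WT. The WT libraries were close together, and the TAAR5-KO libraries held both the highest values (NK2 and NK6) and the lowest (NK4). The log2 fold change was 0.10 (SE 0.09, 95% interval -0.08 to 0.28, edgeR adjusted p = 0.709). Its co-chaperonin gene Hspe1, with 19 to 95 counts per library, had a log2 fold change of -0.05 (SE 0.18, edgeR adjusted p = 0.953).

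**Figure D2:**
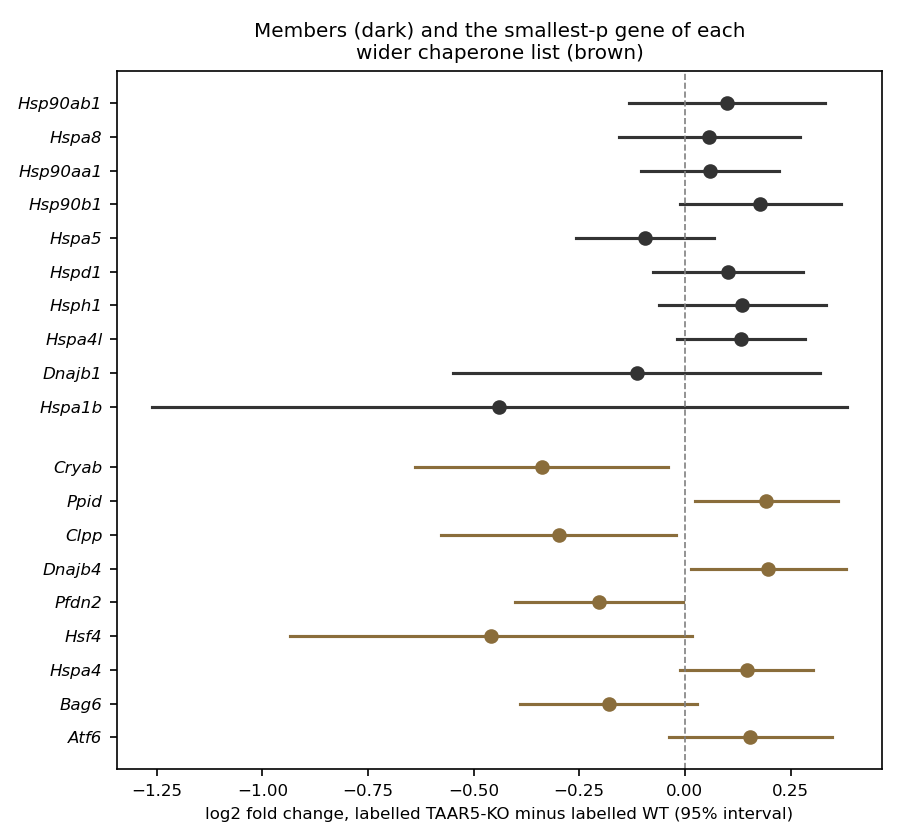
Log2 fold change (x axis, labelled TAAR5-KO minus labelled WT) with its 95% interval from the edgeR fit, for the 10 members (dark) and for the gene with the smallest p in each of 9 wider chaperone lists (brown). All 10 member intervals hold 0, the widest being that of Hspa1b from -1.26 to 0.38, and 0 of the genes shown passed the adjusted threshold.

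Levels between genes were compared as CPM per kilobase of merged exons. Hsp90ab1 was the highest at 62.3 ± 8.33 (SD over 12 libraries), followed by Hspa8 at 26.5 ± 3.03, Hsp90aa1 at 19.4 ± 1.11 and Hsp90b1 at 10.5 ± 1.22 CPM per kilobase. None of these ranges overlapped that of its neighbour in the order, down to Hspa5. Hspa5 at 5.43 ± 0.379 and Hspd1 at 5.14 ± 0.483 overlapped, with Hspa5 the higher in 9 of 12 libraries. Hspd1 and Hsph1 at 4.70 ± 0.543 also overlapped, with Hspd1 the higher in 11 of 12. Hspa4l followed at 2.98 ± 0.201, Dnajb1 at 0.643 ± 0.174 and Hspa1b at 0.120 ± 0.0705 CPM per kilobase. Dnajb1 and Hspa1b, both known for heat induction, were thus the lowest, and the order held in all 12 libraries from Hsph1 to Hspa1b. Merged exons include those of rarer isoforms, so a gene with long alternative exons is placed too low on this scale. Reads that fit both Hspa1b and Hspa1a may have been split or lost, so the level of Hspa1b may be too low as well.

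**Figure D3:**
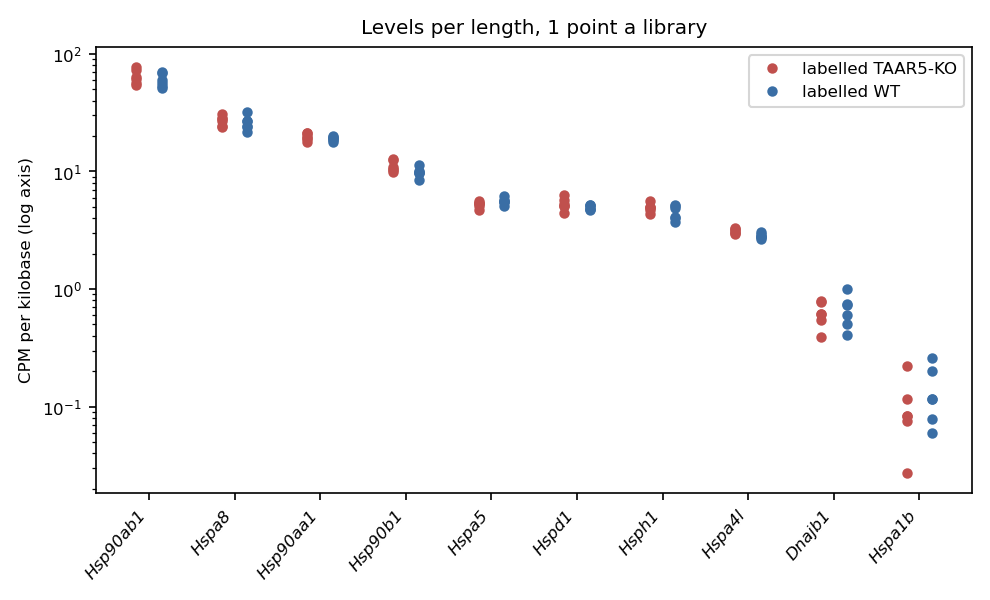
CPM per kilobase of merged exons (log axis) for each member, 1 point for each of the 12 libraries, red for the TAAR5-KO label and blue for WT. The members span from 62.3 (Hsp90ab1) to 0.120 (Hspa1b) CPM per kilobase on average, and the labels overlap within each gene.

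The spread around the label means, as the biological coefficient of variation of edgeR, had a median of 11.2% over the members and 12.5% over all features. It was 8.34% for Hspa4l, 8.58% for Hspa5, 8.81% for Hspd1 and 9.56% for Hsp90aa1, and 6 of the 10 members were under the median of all features. Dnajb1 at 21.0% and Hspa1b at 29.9% varied more, and both also had the lowest counts of the members.

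Across the 12 libraries the members correlated with one another in both directions. The 45 pairs had a median Pearson's r of 0.11 on log2 CPM, from -0.63 to 0.84, with 25 positive and 20 negative. That median was 0.026 without NK12, 0.028 with Spearman's rho and -0.02 for deviations from the label means, so its sign was not stable. Among them 4 pairs (8.89%) had r of at least 0.5, against 7.67% of the 96625851 pairs of all features, whose median was -0.001. Permutation p-values of the pairs below are two-sided and unadjusted, and the members share libraries and depth.

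**Figure D4:**
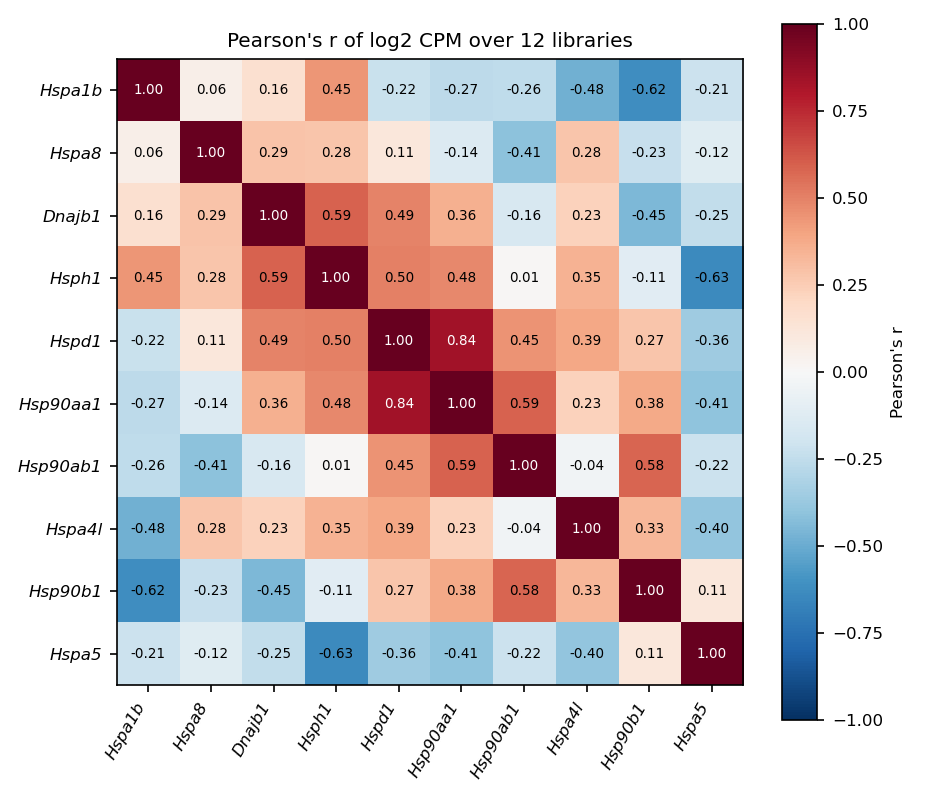
Pearson's r of log2 CPM over the 12 libraries for each pair of members (colour scale from -1 to 1). Hsp90aa1 and Hspd1 stand out at 0.84, Hsp90aa1, Hsp90ab1 and Hsp90b1 have positive values among themselves, and Hspa5 has negative values with all members but Hsp90b1.

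The highest pair joined the cytosol and the mitochondrion. Hsp90aa1 and Hspd1 had r = 0.84 (permutation p = 0.00051) and Spearman's rho = 0.74 (permutation p = 0.00804). The value was 0.89 within the TAAR5-KO label and 0.61 within WT, and 0.68 without NK2 and NK6, the 2 libraries farthest from the median of Hsp90aa1. Of 6683 features with a median count of at least 50, Hspd1 was the one with the highest r to Hsp90aa1, ahead of Ehbp1 (0.84) and Arfgef1 (0.84). Hspd1 and Hspe1, with their shared promoter run, had r = -0.21 (permutation p = 0.514).

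Of the 3 pairs of HSP90 genes, 1 had an r of at least 0.5 without the libraries farthest from the median. Hsp90aa1 and Hsp90ab1 had r = 0.59 (permutation p = 0.0465) and rho = 0.62 (p = 0.0383, permutation), with 0.57 and 0.55 within the labels and 0.54 without NK2 and NK6. Hsp90ab1 and Hsp90b1 had r = 0.58 (permutation p = 0.0482) and rho = 0.60 (permutation p = 0.0426), but the value was 0.87 within TAAR5-KO and 0.17 within WT, and 0.14 without NK1 and NK2, so it rested on those libraries. Hsp90aa1 and Hsp90b1 had r = 0.38 (permutation p = 0.228), and 0.18 without NK2 and NK6. Hsp90aa1 had r = 0.48 with Hsph1 (permutation p = 0.112) and -0.14 with Hspa8 (permutation p = 0.668).

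Among the genes that heat is known to induce, Dnajb1 and Hsph1 had r = 0.59 (permutation p = 0.0440) and rho = 0.56 (permutation p = 0.0621). The pair had 0.93 within WT and 0.28 within TAAR5-KO, and 0.85 without NK4 and NK12. Hspa1b had r = 0.16 with Dnajb1 (permutation p = 0.622) and 0.45 with Hsph1 (permutation p = 0.145, rho = 0.63 with p = 0.0317), on very few counts. Hspa4l and Hsph1 had r = 0.35 (permutation p = 0.265).

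Hspa5 had a negative r with every cytosolic member, but only the pair with Hsph1 had a permutation p under 0.05. Hspa5 and Hsph1 had r = -0.63 (permutation p = 0.0262) and rho = -0.67 (permutation p = 0.0199), with -0.44 within TAAR5-KO, -0.60 within WT and -0.69 without NK3 and NK8. With Hsp90aa1, r was -0.41 (permutation p = 0.190), and 0.02 within WT. For Hspa5 with Hsp90b1, the other ER member, r was 0.11 (permutation p = 0.739), with 0.90 within WT and 0.19 within TAAR5-KO. That difference between labels was not tested. Against Hspa8, r was -0.12 (permutation p = 0.710).

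**Figure D5:**
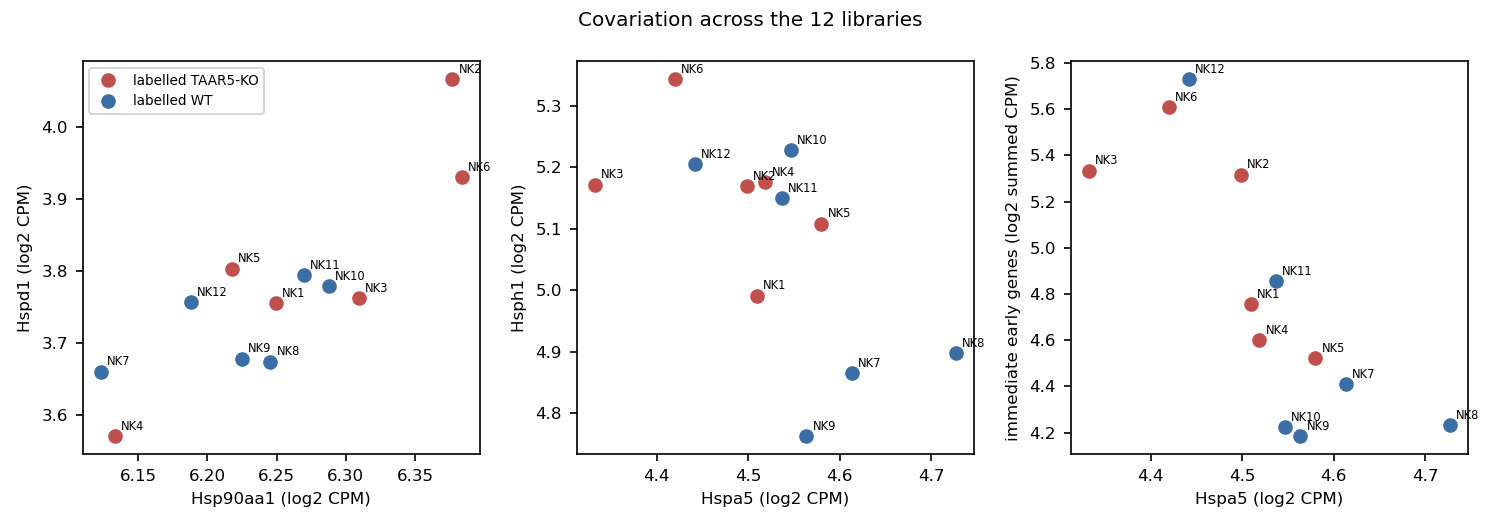
Log2 CPM of Hspd1 against Hsp90aa1 (left), of Hsph1 against Hspa5 (middle) and of the summed immediate early genes against Hspa5 (right), 1 point a library with its number, red for the TAAR5-KO label and blue for WT. NK2 and NK6 lie at the upper right on the left, and both relations with Hspa5 fall from left to right with r of -0.63 and -0.78.

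The features most like Hspa8, Hspa5 and Hspa1b were not listed chaperones. For Hspa8 they were led by Ergic1 (r = 0.87), for Hspa5 by Myh14 (0.87, rho = 0.51) and Pdlim5 (0.87), and for Hspa1b by Rragc (0.93) and Por (0.89), out of 6683 features. These values were picked from many features over 12 libraries and are given as descriptions.

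The wider chaperone set was described with 9 lists of 116 further genes, of which 108 were tested. Of these, 0 passed the adjusted threshold in either direction in the likelihood ratio and the quasi-likelihood test of edgeR, against 1.65% and 0.453% of all features. At an unadjusted p under 0.05 there were 3 higher and 4 lower genes by the likelihood ratio test (6.48% of 108, against 11.9% of all features) and 9 genes by the quasi-likelihood test (8.33%, against 12.0%). The fitted values were positive for 53 genes and negative for 55, with a median of -0.002 on the log2 scale. The smallest adjusted p was 0.328, and for 85 of 108 genes the 95% interval lay within 0.5 of 0.

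By list, the HSP70 and HSP110 genes had 4 positive and 2 negative values, with Hspa4, another HSP110 gene, at 0.15 (SE 0.08, edgeR adjusted p = 0.475). The 23 J-domain genes had 12 positive and 11 negative values, with Dnajb4 at 0.20 (SE 0.09, edgeR adjusted p = 0.370). Among 15 co-chaperones of HSP90, Ppid, a cyclophilin that binds HSP90, had a log2 fold change of 0.19 (SE 0.09, edgeR adjusted p = 0.329). All 6 libraries labelled TAAR5-KO exceeded the WT median of Hspa4, Dnajb4 and Ppid. Bag6 was the gene with the smallest p of 7 nucleotide exchange factors, at -0.18 (SE 0.11, edgeR adjusted p = 0.516).

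The chaperonin TRiC and prefoldin, which fold actin and tubulin, had 11 positive and 3 negative values, and the smallest p belonged to Pfdn2, a prefoldin subunit, at -0.20 (SE 0.10, edgeR adjusted p = 0.406). Mitochondrial chaperones and proteases had 4 positive and 9 negative values, with Clpp, a matrix protease, at -0.30 (SE 0.14, edgeR adjusted p = 0.365). Of the small heat shock proteins only 3 of 8 were tested, all with negative values, led by Cryab, alpha-B crystallin, at -0.34 (SE 0.15, edgeR adjusted p = 0.328). Among 23 ER genes, Atf6 was at 0.16 (SE 0.10, edgeR adjusted p = 0.561), with 11 positive and 12 negative values in the list.

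Of the heat shock factors, Hsf4 had 4 to 26 counts per library, and its 6 TAAR5-KO values, 0.325 to 0.558 CPM, all lay below the 6 WT values, 0.588 to 0.986 CPM. Its log2 fold change of -0.46 (SE 0.24) did not pass the edgeR test (adjusted p = 0.431). A separation of this kind was found in 1.01% of features.

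Of 10 lists of cell type markers, 3 had a summed level with an unadjusted p under 0.05 between labels. The summed level of 5 microglial markers was 21.8 to 31.7 CPM under the TAAR5-KO label and 29.9 to 38.4 CPM under WT (exact permutation test, two-sided, p = 0.00433), and 2 of them were called lower by the likelihood ratio test of edgeR and 0 by the quasi-likelihood test. For 6 oligodendrocyte markers the sums came to 572 to 701 and 610 to 781 CPM (exact permutation p = 0.0260), with 0 of 6 called. The sums of 5 markers of D2 spiny neurons were 98.2 to 120 and 62.0 to 107 CPM (exact permutation p = 0.0411), with 0 called. The lowest WT sum was that of NK11, with 95.6 CPM for the next, and the sum was not tested without NK11. Penk made up most of it, with means of 85.7 and 72.4 CPM. Of the 5 fitted values, 4 were positive and 1 was negative. The other lists had p from 0.0693 to 0.950, among them 6 astrocyte markers with sums of 973 to 1191 and 1082 to 1275 CPM (exact permutation p = 0.182), of which 1 was called lower by the likelihood ratio test. The astrocyte sum was mostly Slc1a2, with means of 941 and 970 CPM and a log2 fold change of -0.04 (SE 0.12). All 6 astrocyte markers had negative fitted values, 4 of them at an unadjusted p under 0.05 in the likelihood ratio test (11.9% of all features). In bulk tissue, fewer cells of a type and less RNA per cell cannot be told apart. With the choroid plexus sum as a covariate, the median log2 fold change of the members was 0.03, against 0.08 without it. Hsp90ab1 was then at 0.03, Hspa5 at -0.05 and Dnajb1 at -0.23. Every member kept its sign, and 0 were called. The part of the other cell types in the members' values was not tested.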

How the data were processed

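Striatal RNA of 12 mice was depleted of ribosomal RNA per the protocol, whereas the labels give polyA RNA, and directional libraries were sequenced. The authors processed the reads with cutadapt 4.1 and STAR 2.7.11b on GRCm39, and featureCounts 2.0.6 assigned them to GENCODE M35 genes. The deposited values are whole-number counts, neither normalized nor pooled, beside a merged exon length for every gene. Whether strand was used, and how reads with several positions were treated, is not given in the sources used here. Another 12 count columns were left aside.

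Features with at least 0.5 CPM in at least 3 libraries were kept, scaled by TMM and compared with the likelihood ratio test of edgeR 4.0.16 in R 4.3.3 (Benjamini–Hochberg adjusted p under 0.1). The filter, test and threshold are the study's, which does not name TMM. A quasi-likelihood fit accompanied it, and p-values were adjusted over all 13902 features. Single values were compared by exact permutation of 6 against 6 libraries, whose smallest p is 0.00216. Correlations used log2 CPM with a prior count of 2 and 100000 permutations. All ratios used counts per kilobase of merged exons, with a pseudocount of 0.5 added to each count. Copies of members were found with blastn 2.17.0 (at least 95% identity over 500 bases, the length chosen after the data were seen). Promoters were read with pysam 0.24.0.

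Named were all members, the gene with the smallest p in each chaperone list, Hspe1, Hspa1a, Cirbp, Rbm3 and features with the highest r to 4 members. The members, lists and tests were chosen with earlier results of these data known. Alternatives were the quasi-likelihood test, DESeq2 1.42.0, library size or RLE scaling, other filters, an adjusted p under 0.05, the Rn18s-rs5 share as a covariate, other prior counts and pseudocounts, Spearman's rho, deviations from label means, members summed with their copies, each library left out and, added after the data were seen, a choroid plexus covariate. Libraries of a label are separate animals per the labels.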

Additional observations from a re-analysis of the deposited data

Results flagged for a closer look

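Among 70 groups of 6 values, 6 had a single library whose gap to its neighbour passed Dixon's 95% critical value for the group's range, where chance gives about 1 in 20 groups. NK12 had the lowest log2 ratio of Hspa5 to Hspa8 of the WT libraries, -2.65 against -2.22 for the next. The same library had the highest summed level of immediate early genes under the WT label, 53.1 CPM against 29.0 for the next, and the lowest sum of oligodendrocyte markers, 610 CPM against 729.0. NK11 was the lowest WT library for the markers of D1 spiny neurons, 17.1 CPM against 29.9, and of D2 spiny neurons, 62.0 CPM against 95.6. NK4 had the highest sum of endothelial markers under the TAAR5-KO label, 7.88 CPM against 6.51. No member's own CPM was set apart in this way in either label.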

How the results depend on the processing

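The count of members called was 0 under every alternative run, and so was that of the wider chaperone genes tested. Hspa1b was not tested under filterByExpr or without NK4, NK7 or NK12, and DESeq2 gave no adjusted p for Hspa1b and Dnajb1. The count over all features ran from 7 with library size only to 415 without NK4, against 229, and was 97 with the Rn18s-rs5 share as a covariate and 85 without NK11. With library size only, the median of all features was -0.49, the median of the members was -0.39, and the log2 fold change turned to -0.43 for Hspa8, -0.40 for Hsp90aa1, -0.38 for Hsp90ab1, -0.32 for Hsp90b1, -0.32 for Hsph1, -0.38 for Hspd1 and -0.35 for Hspa4l, so each of these stayed above the median feature. The median r of the member pairs was then 0.98, where values share each library's unscaled depth. With TMM scaling that median was 0.11, and 0.026 to 0.13 with 1 library left out. Dnajb1 turned to 0.022 with the Rn18s-rs5 share as a covariate, and ran from -0.20 to 0.084 when 1 library was left out, positive only without NK12. Leaving out 1 library moved the log2 ratio of Hsp90aa1 to Hsp90ab1 between -0.084 and 0.00047, with 0.00047 without NK1 and 0.00038 without NK11, and that of Hspa5 to Hspa8 between -0.25 and -0.11, where only the value without NK12 passed. The causes were not tested. No paired analysis was possible because the columns carry no animal number, so no replicate block could be made. Hspa1b and Dnajb1 are limited by their counts.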

Other observations

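Immediate early genes, which neuronal activity is known to induce, varied across the libraries beside the chaperones. Their summed level was 23.0 to 48.8 CPM under the TAAR5-KO label and 18.2 to 53.1 CPM under WT (exact permutation test, two-sided, p = 0.331), and 0 of the 10 tested passed the edgeR threshold (1.65% of all features did), with 3 at an unadjusted p under 0.05 (11.9% of all features). These 3 were higher under the TAAR5-KO label, and 8 of the 10 fitted values were positive and 2 negative. Egr1 was the largest part of the sum, with means of 14.8 and 13.4 CPM and a log2 fold change of 0.14 (SE 0.26). The libraries with high sums were NK2, NK3, NK6 and NK12. Their cortical pyramidal markers summed to 81.3, 88.1, 77.3 and 96.5 CPM, and their choroid plexus markers to 3.28, 3.65, 8.23 and 3.64 CPM. NK11, with 78.4 CPM of cortical markers, and NK1, with 2.60 CPM of choroid plexus markers, had lower immediate early gene sums (29.0 and 27.0 CPM). The part of tissue content in the relations with this sum was not tested. Hspa5 had r = -0.78 with this sum (permutation p = 0.00138) and rho = -0.85 (permutation p = 0.00101), with -0.76 within TAAR5-KO, -0.73 within WT and -0.87 without NK3 and NK8. Hsph1 had r = 0.67 (permutation p = 0.0181) and rho = 0.58 (permutation p = 0.0526), with 0.69 and 0.57 within the labels. These are 2 of 10 relations computed with the sum, and the p-values are unadjusted. The relation was noticed in these data and is a description.

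Cirbp and Rbm3 code for RNA-binding proteins known to rise in the cold. Cirbp had 1.61 to 3.52 CPM under the TAAR5-KO label and 2.63 to 3.51 CPM under WT, with 5 of 6 TAAR5-KO libraries below every WT library and NK2 above them. Its log2 fold change was -0.38 (SE 0.15, edgeR adjusted p = 0.216). Rbm3 had a log2 fold change of -0.18 (SE 0.22, edgeR adjusted p = 0.819). Among the members, Hspa4l had r = -0.79 with Cirbp (permutation p = 0.00185, unadjusted) and rho = -0.71 (permutation p = 0.0124), with -0.58 within TAAR5-KO, -0.89 within WT and -0.66 without NK1 and NK10. This pair was picked from 10 relations with Cirbp and as many with Rbm3.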
